A study of Homo sapiens with 6 samples.

Results

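The zinc finger genes of chromosome 19 were taken as the protein-coding genes of that chromosome whose symbol begins with ZNF. GENCODE, placed on GRCh37 (the build also called hg19), listed 249 of them among 1480 protein-coding genes of chromosome 19 and 20098 protein-coding genes on the 23 chromosomes of the files. Each gene was read at its start, the 5′ end on its own strand, in the 100 Kb bin that holds it. The 249 starts fell in 130 bins, and all of these bins had a score in all 6 libraries. As many as 5 of these genes shared a bin, and 187 of the 249 lay in 68 shared bins, so their values were not independent of each other.

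The libraries came from T47D, an estrogen receptor-positive human breast cancer line. Parental T47D cells were starved of hormone for 72 h and collected without E2 (estradiol, T0) or 1, 4, 16 and 24 h after 100 nM E2 (T1, T4, T16 and T24), and a tamoxifen-resistant line (TamR) was the sixth condition. The label of the TamR sample says untreated, while the study's methods keep resistant cells in 100 nM tamoxifen. TCC, tethered chromatin conformation capture, counts how often pairs of regions lie in contact, and the deposited score of a bin is the first eigenvector of the contacts between chromosomes. Bins with a score above 0 belong to compartment A, the open and active part of the nucleus, and bins with a score below 0 to compartment B, the closed part. Each condition had 1 library, so no difference between conditions was tested and no value has a replicate error. As a substitute scale for change, every bin was also given a percentile rank from 0 (lowest score) to 100 (highest score) among the scored bins of its own library. The border between B and A lay at a rank of 53.9 in T0 and 52.5 in TamR. Over all bins the scores of the 10 pairs of parental libraries correlated at 0.985 to 0.996, and those of TamR with the parental libraries at 0.894 to 0.901. Over the 130 bins with a ZNF start the same values were 0.968 to 0.992 and 0.700 to 0.726. The points share libraries and neighbouring bins, and these correlations are descriptions. Scores say where a gene lay and not whether it was expressed, since RNA was not used here.

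Most ZNF genes of chromosome 19 encode KRAB zinc finger proteins. These bind DNA through tandem C2H2 fingers, in which a pair of cysteines and a pair of histidines hold a zinc ion. The KRAB domain recruits the corepressor TRIM28, which brings in the histone methyltransferase SETDB1 and heterochromatin proteins, and many family members silence transposable elements. The genes arose by repeated tandem duplication and stand in clusters, which are themselves known to carry the heterochromatin mark H3K9me3 over their finger exons.

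The repeat that makes these genes alike is shown here as the first finger with the usual spacing in the coding strand of 3 members, with capitals for the codons of the zinc-binding cysteines and histidines. ZNF471 lies in the block that moved farthest in TamR, ZNF676 in the stretch of 19p12 that ranked lowest, and ZNF114 in the bin that ranked highest. The stretches are chr19:57036058-57036120 on the plus strand, chr19:22363862-22363924 on the minus strand and chr19:48789797-48789859 on the plus strand of GRCh37.
ZNF471: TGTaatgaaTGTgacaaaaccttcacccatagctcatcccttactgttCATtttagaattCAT
ZNF676: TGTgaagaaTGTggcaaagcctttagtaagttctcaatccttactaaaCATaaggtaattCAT
ZNF114: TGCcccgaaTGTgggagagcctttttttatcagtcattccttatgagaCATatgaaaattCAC
Of the 63 bases, 42 were identical between ZNF471 and ZNF676, 37 between ZNF471 and ZNF114, and 42 between ZNF676 and ZNF114. In the longest coding sequence that translated without a break, the finger pattern (cysteine, 2 to 4 residues, cysteine, 12 residues, histidine, 3 to 5 residues, histidine) was found in 246 of 249 members (98.8%) and in 41 of 1193 other coding sequences of the chromosome (3.44%). The median was 12 matches per member, and ZNF208 held the most, with 36. ZNF625-ZNF20, ZNF816-ZNF321P and ZNF274 gave no match. The first and second of these are readthrough symbols, and the unbroken sequence of ZNF274 was 79 residues long. A letter pattern of the KRAB A box (an acidic residue, then valine, isoleucine or leucine, 3 residues, phenylalanine or leucine, 3 residues, then glutamate, glutamine or lysine, and tryptophan) was found in 193 members (77.5%) and in 24 of the other coding sequences (2.01%).

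By position the members formed 52 genes in 26 bins of 19p13 (starts below 20 Mb), 33 genes in 29 bins of 19p12 (20 Mb to the centromere), 163 genes in 74 bins of 19q13 (from 32 Mb) and 1 gene, ZNF536, in 19q12. When starts at most 1 Mb apart were chained, 9 subclusters of at least 5 genes held all but 11 members. Subclusters 1, 2 and 3 lay in 19p13, with starts from 2.82 to 2.94 Mb, 7.07 to 9.90 Mb and 11.62 to 12.75 Mb. Subcluster 4 ran from 19.78 to 24.22 Mb, across the border of 19p13 and 19p12. Subclusters 5 to 9 lay in 19q13, with starts from 35.17 to 35.46, 36.71 to 38.31, 44.03 to 45.58, 52.07 to 54.02 and 55.99 to 58.99 Mb.

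In hormone-starved cells the clusters lay in different compartments. Of the 249 members, 201 (80.7%) were in compartment A in T0, against 77.7% of the 19670 protein-coding genes scored in all 6 libraries and 97.4% of the 1230 other scored genes of chromosome 19. By cluster, A held 44 of 52 members in 19p13, 1 of 33 in 19p12 and 156 of 163 in 19q13. The median rank of the members in T0 was 75.2, that of all protein-coding genes 79.8, that of the 262 scored ZNF genes of other chromosomes 77.9 and that of the other genes of chromosome 19 95.7. ZNF genes therefore lay near the middle of all genes in T0 and below their neighbours on the chromosome. The median rank was 89.9 in 19p13, 76.7 in 19q13 and 41.5 in 19p12, and the ranks of 19p12 members in T0 ran from 14.8 to 55.6. The 201 members in A shared 94 bins and the 48 in B lay in 36 bins, so that 72.3% of bins were in A when each was taken once.

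In 19q13 the members with the highest mean rank lay outside the subclusters. ZNF114 (chr19:48773338-48790865, plus strand) was the highest of all members, with scores (×1000, as all scores below) of 14.60 in T0, 14.60 in T1, 14.36 in T4, 14.11 in T16, 15.82 in T24 and 14.03 in TamR. ZNF473, known to take part in the 3′ end processing of histone transcripts, scored 13.22, 13.58, 13.57, 14.67, 15.22 and 13.75 in the same order. ZNF526 scored 11.98, 13.17, 13.18, 12.53, 13.90 and 13.98. All of these values lay above rank 96, and ZNF114 had a rank of 99.3 in both T0 and TamR. In 19p13 the highest were ZNF653, ZNF57 and ZNF554, with ranks from 94.9 to 99.7 in the 6 libraries. The 11 members outside subclusters had a median rank of 96.3 in T0 and 96.4 in TamR.

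**Figure D1:**
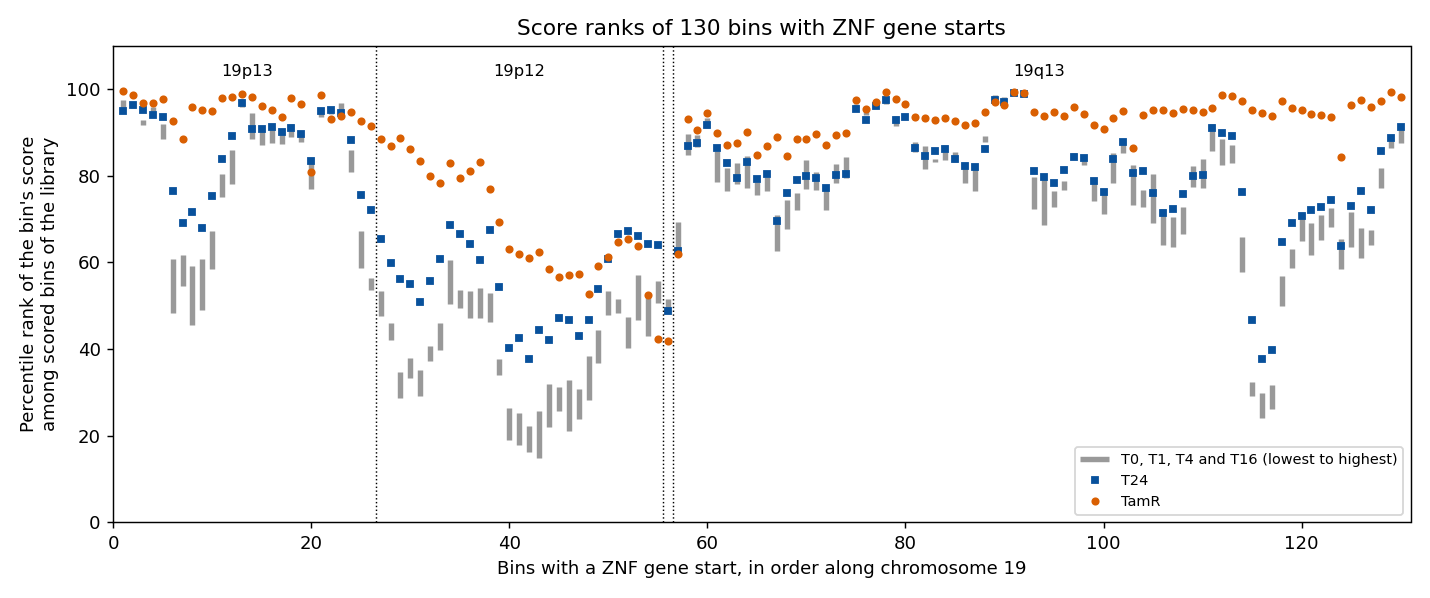
Percentile rank of the score (y axis, 0 to 100 among the scored bins of a library) in each of the 130 bins with a ZNF start, in order along chromosome 19 (x axis); grey bars run from the lowest to the highest of T0, T1, T4 and T16, blue squares are T24, orange circles are TamR, and the dotted lines part 19p13, 19p12, the single 19q12 bin and 19q13. In 28 of the 33 genes of 19p12 TamR lay above all parental libraries, and the 3 bins of the ZNF582 to ZNF835 block rose from ranks of 24.1 to 30.2 in T0 to 93.9 to 95.1 in TamR.

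Over the E2 course the members shifted little until 16 h and more by 24 h. The number in A was 201 in T0, 205 in T1, 199 in T4, 212 in T16 and 227 (91.2%) in T24. Compartment A held 75.9% of all genes and 98.9% of the other genes of chromosome 19 in T24. The members' median rank went from 75.2 to 76.4, 76.6, 78.8 and 79.5. Relative to T0, 4 members differed in compartment at T1, all from B to A, where 2.46% of all protein-coding genes differed. At T4, 6 members differed, 2 towards A and 4 towards B (2.34% of all genes). At T16, 13 differed, 12 of them towards A (2.99% of all genes). At T24, 26 differed, all towards A, where 4.39% of all genes differed and 611 of those 864 genes moved from A to B. The members thus changed in the direction opposite to most changing genes at T24. So did the other genes of chromosome 19, of which 18 (1.46%) differed, all towards A. At 1 or more E2 time points 30 members (12%) differed from T0, against 5.70% of all genes, and without T24 the members' share was 6.43%. Most of these changes were in bins that scored close to the border in at least 1 library. Without the bins whose absolute score was in the lowest 10% of any library, 2 of 206 members (0.971%) and 5 of 16212 genes (0.0308%) differed. A bin that crosses the border often scores close to it in some library and is then left out. These counts therefore do not give the size of a change.

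The 24 h library carried most of this. A rise of 10 rank points or more from T0 to T24 was seen in 59 members (23.7%), against 2.95% of all genes, and a fall of that size in 0 members, against 0.564%. The rank in T24 exceeded that of the other 4 parental libraries in 150 members (60.2%), against 21.9% of all genes and 29.0% of the other genes of chromosome 19. The median change from T0 to T24 was 4.34 points over the members, -0.10 over all genes, 0.60 over ZNF genes of other chromosomes and 0.41 over the other genes of chromosome 19. Members and other genes of the chromosome start from different ranks, and a gene near the top has little room to rise. Among genes ranked from 20 to 80 in T0, the median change to T24 was 7.52 for 151 members, 8.96 for 125 other genes of chromosome 19, 1.40 for 124 ZNF genes of other chromosomes and -0.28 for 8934 protein-coding genes. Other genes of the chromosome from the same range thus rose by about as much as the ZNF genes. Some of these other genes share a bin with a ZNF start, so the sets hold some of the same bins. When bins were ranked within chromosome 19 alone, the members' median change from T0 to T24 turned to -0.54.

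19p12 showed the E2 course most clearly. The number of its 33 members in A was 1 in T0, 3 in T1, 0 in T4, 4 in T16 and 19 in T24, and the median rank was 41.5, 45.6, 42.0, 44.5 and 59.8 in that order. All 33 ranked higher in T24 than in each of the other parental libraries, and 30 rose by 10 points or more from T0 to T24. ZNF486 (chr19:20278023-20311297, plus strand) scored -3.93 in T0, -3.77 in T1, -4.63 in T4, -3.50 in T16 and 0.03 in T24. ZNF91, known to repress SVA retrotransposons, scored -0.45, -0.94, -0.84, -0.53 and 2.02 in the same order. ZNF93, known to repress L1 elements, scored -0.74, -1.13, -0.73, -0.05 and 1.76. ZNF675, a known inhibitor of TRAF6 signalling, scored -2.52, -1.48, -1.95, -1.17 and 2.14. In each of the 4 genes the values of T0 to T16 lay below 0 and that of T24 above it. ZNF91 and ZNF675 were named for their known functions after their values were seen. Within chromosome 19 the median change of 19p12 from T0 to T24 was 1.44 rank points, in place of 17.3 among all bins.

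Few members left their T0 compartment at all 4 E2 time points. ZNF506 and ZNF253, which share 1 bin at the border of 19p13 and 19p12 (chr19:19900001-20000000), scored -0.06 in T0 and 0.46, 0.21, 0.25 and 3.16 after E2. The T0 value and those of T1 to T16 were all close to the border, with ranks from 53.6 to 56.5, and only T24, at 72.0, stood away from it. The B to A changes of 19p13 at T16 and T24 came from this bin and from subcluster 2. There ZNF558 scored -1.03, -0.09, -0.57, 1.32 and 4.20 from T0 to T24, ZNF266 -0.87, -0.30, -0.25, 1.32 and 2.29, and ZNF699, whose bin also holds ZNF559, ZNF559-ZNF177 and ZNF177, -1.53, -0.73, -0.52, 1.01 and 3.10. In these 3 bins T16 and T24 lay above 0 and the earlier libraries below it. In 19q13 the only change of compartment after E2 was that of ZNF264, ZNF805 and ZNF460 at T4, whose shared bin scored 0.16 in T0 and -0.56 in T4.

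**Figure D2:**
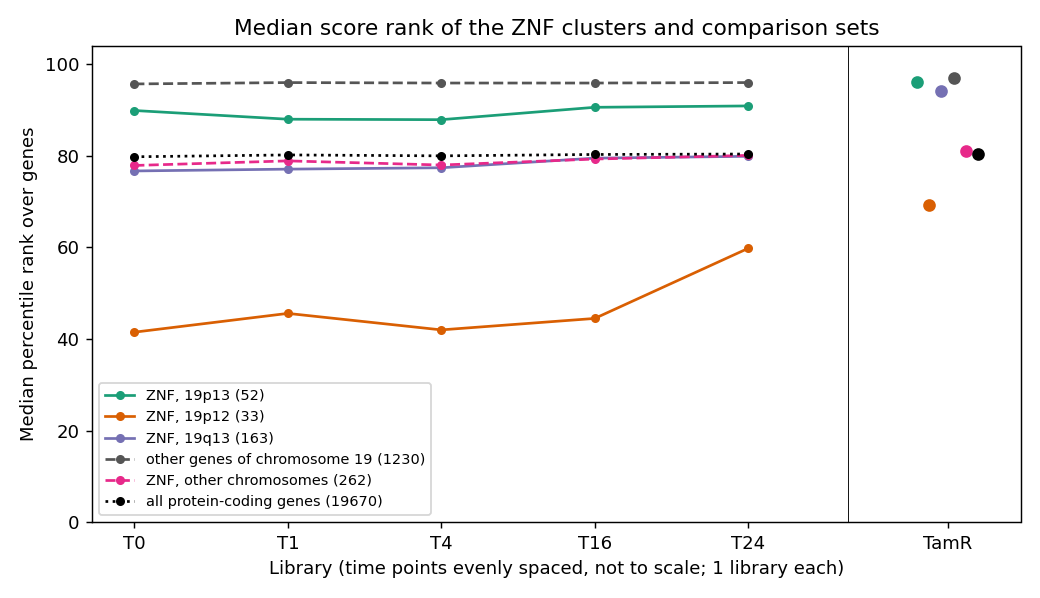
Median percentile rank of the score over genes (y axis) in each library (x axis, time points evenly spaced; number of genes in brackets) for the ZNF genes of 19p13, 19p12 and 19q13, the other genes of chromosome 19, ZNF genes of other chromosomes and all protein-coding genes; TamR points are set side by side at the right. The 19p12 line rises from 44.5 in T16 to 59.8 in T24, and 19q13 ends at 94.2 in TamR.

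In tamoxifen-resistant cells the members lay higher than in the parental cells. In TamR 246 of 249 members (98.8%) were in A, against 78.4% of all protein-coding genes and 99.9% of the other genes of chromosome 19. The members' median rank was 94.1 against 75.2 in T0. From T0 to TamR 46 members passed from B to A (18.5%), where 5.20% of all genes did, and 1 passed from A to B (0.402%), where 4.53% of all genes did. Without the weak bins 15 of 206 members (7.28%) and 2.26% of 16212 genes passed from B to A. A rank rise of 10 points or more was seen in 169 members (67.9%), against 12.5% of all genes, and a fall of that size in 1 (0.402%), against 11.6%. TamR ranked above all 5 parental libraries in 234 members (94.0%), against 33.1% of all genes, and below all 5 in 7 (2.81%), against 42.9%. The median change from T0 was 15.8 rank points over the members and -0.40 over all genes. Over the 262 ZNF genes of other chromosomes it was 0.91, with 12 changes from B to A and 8 from A to B. The median span of a member over the 5 parental libraries was 6.45 rank points, less than its median change to TamR.

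The shift was shared by other genes of chromosome 19 that started from the same ranks. Over its 557 bins scored in all 6 libraries, chromosome 19 had the highest median rank change from T0 to TamR of the 23 chromosomes, 2.07 points, with 12% of bins passing from B to A and 0.180% from A to B. Among genes ranked from 20 to 80 in T0, the median change was 25.1 points for 151 members and 24.9 points for 125 other genes of the chromosome, against 5.71 for 124 ZNF genes of other chromosomes and -0.62 for 8934 genes in all. Of the 557 bins, 130 held a ZNF start. Rises of 10 points or more were found in 83 of these 130 and in 83 of the other bins, a smaller share. Of the 112 bins in B in T0, 67 went to A in TamR. Among the 36 of these 112 with a ZNF start, 34 did. These counts of bins were not matched for starting rank. The 139 other genes in a bin with a ZNF start had a median change of 7.37, and the 549 that lay over 5 bins from one had 0.03, at median T0 ranks of 87.1 and 97.4. Among genes of like starting rank the ZNF genes of the chromosome and its other genes thus had medians close to each other. The sets are not independent, since some of the other genes share a bin with a ZNF start. ZFP28, in the bin of ZNF471, is one, and further zinc finger symbols such as PEG3 were also among them.

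Rises were also found in other gene families of the chromosome, which were chosen after their values were seen. The 17 leukocyte receptor genes (LILR and KIR symbols) rose from a median rank of 67.8 to 95.5, the 9 NLRP genes, innate immune and oocyte proteins, from 38.8 to 93.3, and the 22 PSG and CEACAM genes, adhesion molecules of placenta and epithelium, from 72.6 to 90.3. The 15 kallikrein genes (KLK) rose less, from 85.5 to 91.0, and the 12 genes of the CYP2 and CYP4 symbols were at 92.4 and 93.3. Among 19 other zinc finger symbols of the chromosome (ZFP, ZSCAN, ZIM, ZIK, ZBTB and PEG3), the median rank was 67.6 in T0 and 94.8 in TamR. All 19 were in A in TamR against 12 in T0. Several of them, such as ZSCAN18 in the bin of ZNF329 and ZNF274, share a bin with a ZNF start. Their values are then those of the members and add nothing separate. PEG3, the imprinted gene, scored -3.88 in T0, -3.87 in T1, -4.61 in T4, -3.95 in T16, -2.18 in T24 and 9.67 in TamR.

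**Figure D3:**
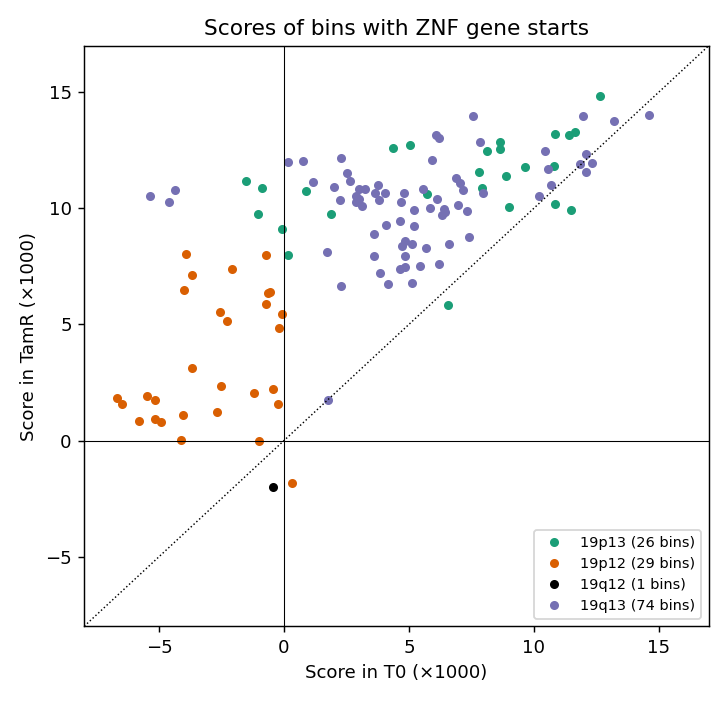
Score in T0 (x axis, ×1000) against score in TamR (y axis, ×1000) for the 130 bins with a ZNF start, 1 point per bin, coloured by cluster; the solid lines mark the border of A and B at 0 and the dotted line equal scores. The 3 points of 19q13 at the upper left are the ZNF582 to ZNF835 block, and the 3 points under the horizontal line are ZNF254, ZNF536 and, at -0.02, ZNF726.

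The farthest shift was that of a block of 7 genes in subcluster 9 of 19q13: ZNF582, ZNF583, ZNF667, ZNF471, ZNF470, ZNF71 and ZNF835. They lie in 3 neighbouring bins, and they belonged to a run of 10 bins, chr19:56700001-57700000, that was in B in T0 and in A in TamR. ZNF471 (chr19:57019219-57041590, plus strand) and ZNF470 scored -5.36 in T0, -4.37 in T1, -5.19 in T4, -4.58 in T16, -3.12 in T24 and 10.55 in TamR. The bin of ZNF582 (chr19:56887215-56904907, minus strand), a gene known to be hypermethylated in cervical cancer, ZNF583 and ZNF667 scored -4.35, -4.07, -4.54, -3.92, -1.61 and 10.81 in that order. The bin of ZNF71 (chr19:57106668-57137849, plus strand) and ZNF835 scored -4.60, -4.65, -5.07, -4.03, -2.78 and 10.27. All 5 parental values of each bin were negative, and TamR stood far above them. In ranks, ZNF471 went from 24.1 to 94.5, ZNF582 from 30.2 to 95.1 and ZNF71 from 28.8 to 93.9. The other 52 members of subcluster 9 were all in A in T0 and in TamR and rose from a median rank of 69.1 to 96.1, so that the block and its flanks reached like ranks in TamR from different ranks in T0. A further run, chr19:56200001-56600000, had no member and went from a mean score of -3.09 in T0 to 10.20 in TamR.

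The 250 bases before the starts of genes of the block are shown because their bins moved together, with those of ZNF676 of 19p12 for comparison. Capitals mark each CpG. The stretches are chr19:56904908-56905157 (minus strand), chr19:57018969-57019218 (plus strand), chr19:57106418-57106667 (plus strand) and chr19:22398604-22398853 (minus strand) of GRCh37.
ZNF582: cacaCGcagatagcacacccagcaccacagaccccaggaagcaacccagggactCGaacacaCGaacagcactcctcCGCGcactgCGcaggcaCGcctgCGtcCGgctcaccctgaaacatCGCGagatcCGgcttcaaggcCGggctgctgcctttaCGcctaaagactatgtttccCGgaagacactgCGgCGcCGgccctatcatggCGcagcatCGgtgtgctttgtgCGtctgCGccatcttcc
ZNF471: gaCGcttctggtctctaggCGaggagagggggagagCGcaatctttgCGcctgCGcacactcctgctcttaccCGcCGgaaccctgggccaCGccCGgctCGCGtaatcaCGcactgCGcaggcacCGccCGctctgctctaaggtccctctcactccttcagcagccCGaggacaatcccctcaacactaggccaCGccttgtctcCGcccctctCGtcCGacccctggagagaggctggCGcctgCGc
ZNF71: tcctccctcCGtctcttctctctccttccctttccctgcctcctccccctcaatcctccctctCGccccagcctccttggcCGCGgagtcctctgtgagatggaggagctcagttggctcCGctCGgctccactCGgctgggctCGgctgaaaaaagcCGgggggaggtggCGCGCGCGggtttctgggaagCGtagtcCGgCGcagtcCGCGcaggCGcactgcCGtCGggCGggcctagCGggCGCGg
ZNF676: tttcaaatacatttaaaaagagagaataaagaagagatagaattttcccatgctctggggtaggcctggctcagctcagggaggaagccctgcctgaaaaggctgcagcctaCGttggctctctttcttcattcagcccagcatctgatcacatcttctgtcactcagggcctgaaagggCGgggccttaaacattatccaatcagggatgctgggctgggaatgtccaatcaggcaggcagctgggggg
The first of these held 22 CpG, the second 22, the third 25 and that of ZNF676 2. The block was not uniform: of its genes not shown, ZNF667 had 22, ZNF835 21, ZNF470 15 and ZNF583 5. ZNF676 stood at the low end of 19p12, where ZNF98 had 18. The median over the 249 members was 14 CpG, the same as over all 19670 genes. At least 10 CpG were found before 188 members (75.5%) and before 60.9% of all genes. The median was 7 in 19p12, 12 in 19p13 and 15 in 19q13. DNA methylation was not measured here, and a count of CpG says nothing of it.

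Members of 19p12 also passed to A but reached lower ranks. In TamR 31 of 33 were in A against 1 in T0, and the median rank was 69.3 against 41.5, a median change of 32.1 points. The run of bins that went from B to A was long here: chr19:20700001-24000000 held 33 bins and 27 members, with a mean score of -3.07 in T0, -0.17 in T24 and 3.28 in TamR. A second run, chr19:19900001-20500000, held 6 bins and 6 members and went from -2.60 to 7.71. The level in TamR fell towards the centromere. The 16 members that start below 22 Mb had a median rank of 50.0 in T0, 62.6 in T24 and 83.0 in TamR, and the 17 that start above it 32, 47.2 and 61.1. This boundary was chosen after the values were seen. Ranked within chromosome 19, the median change of 19p12 to TamR was 1.10 points, that of 19p13 16.9 and that of 19q13 14.0. The 19p12 members thus nearly kept their place within the chromosome. Among all bins their median change of 32.1 points was larger than that of 19p13 (7.98) and that of 19q13 (15.6).

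ZNF486, ZNF737 and ZNF626 rose farthest in 19p12. ZNF486 scored 8.05 in TamR against -3.93 in T0, and its rank went from 32.6 to 88.7. ZNF737 scored -3.69 in T0, -2.84 in T1, -3.73 in T4, -3.15 in T16, -0.18 in T24 and 7.14 in TamR. ZNF626 scored -3.99, -4.04, -4.53, -3.41, -0.92 and 6.47 in that order. In these genes T24 lay between the earlier parental libraries and TamR. The lowest mean ranks were those of ZNF676, ZNF257 and ZNF729, with the scores of ZNF729 at -6.67, -5.87, -5.11, -5.39, -1.99 and 1.83, and those of ZNF676 at -6.47, -5.84, -5.73, -5.63, -3.12 and 1.57. Their ranks in T0 were 14.8 and 16.3 and in TamR 62.4 and 61.1, so that genes at the bottom of the family in T0 ended a little above the border. The highest mean ranks of 19p12 were those of ZNF430, ZNF431 and ZNF93, which scored 6.34, 5.47 and 7.98 in TamR.

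Nearest to the centromere TamR no longer stood clearly above T24. In 5 members of 19p12 T24 ranked above TamR, and all of them start above 22 Mb. In ZNF91, ZNF675 and ZNF681 the gap was small, with ranks of 66.6, 67.2 and 66.1 in T24 and 64.7, 65.3 and 63.7 in TamR. Their scores were slightly higher in TamR, at 2.23, 2.35 and 2.05, than in T24, at 2.02, 2.14 and 1.92. Only ZNF726 and ZNF254 were lower in TamR by score as well. ZNF254 (chr19:24216207-24312770, plus strand) scored 0.34 in T0, 0.19 in T1, -0.40 in T4, -0.57 in T16, 1.54 in T24 and -1.85 in TamR, and it was the single member that passed from A to B. Its rank fell from 55.6 in T0 to 42.4 in TamR, and the parental values lay on both sides of the border. ZNF726 scored -1.01 in T0, 1.59 in T24 and -0.02 in TamR. ZNF724, which ranked 60.9 in T24 and 61.2 in TamR, scored -0.22, 0.93 and 1.59. Both changed by less from T0 to TamR than each spanned over the 5 parental libraries, which was 21.4 and 13 rank points. On the other side of the centromere ZNF536, known as a negative regulator of neuronal differentiation, was the single member in B in all 6 libraries. It scored -0.45, -0.86, -0.32, -0.90, -1.27 and -1.98 from T0 to TamR.

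A compartment that held in all 5 parental libraries and was the other one in TamR was found in 21 members. All of them were B in the parental libraries and A in TamR (8.43%), and 3.79% of all genes changed in that direction. They were the 7 genes of the 19q13 block and 14 genes of 19p12: ZNF737, ZNF626, ZNF66, ZNF43, ZNF208, ZNF257, ZNF676, ZNF729, ZNF98, ZNF492, ZNF99, ZNF723, ZNF728 and ZNF730. The TamR scores of the block were 10.27 to 10.81, and those of the 14 genes ran from 0.01 in ZNF728 to 7.14 in ZNF737. For several of the 14 the TamR value was thus close to the border. None of the 249 members was in A in all parental libraries and in B in TamR, where 531 of 19670 genes were.

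In 19p13 all 52 members were in A in TamR, as they were in T16 and T24, and the median rank went from 89.9 in T0 to 96.1. Of the 17 members that rose by 10 points or more, 13 lay in subcluster 2 and 4 (ZNF101, ZNF14, ZNF506 and ZNF253) in subcluster 4. Of the 8 that passed from B to A, 6 lay in subcluster 2, and ZNF506 and ZNF253 were the others. Subcluster 2 had a median rank of 58.4 in T0, 75.3 in T24 and 95.8 in TamR, while subcluster 3 went from 90.3 to 96.3 and subcluster 1 from 97.5 to 99.7. ZNF699 scored 11.20 in TamR, ZNF266 10.88 and ZNF558 9.74, and their ranks rose by 50.3, 46.1 and 44.5 points from T0. In each of them T24 lay above the earlier libraries and TamR above T24. ZNF558, a KRAB protein known from work on human neural progenitors, shares its bin with no other member. ZNF799, ZNF791 and ZNF333 had the largest falls of 19p13 when 1 member per bin was taken, with scores of 6.57, 11.49 and 10.87 in T0 and 5.83, 9.92 and 10.20 in TamR. Their falls were 3.23, 2.53 and 0.83 rank points. The ZNF799 value of TamR lay within the parental range, and those of ZNF791 and ZNF333 lay just below theirs.

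**Figure D4:**
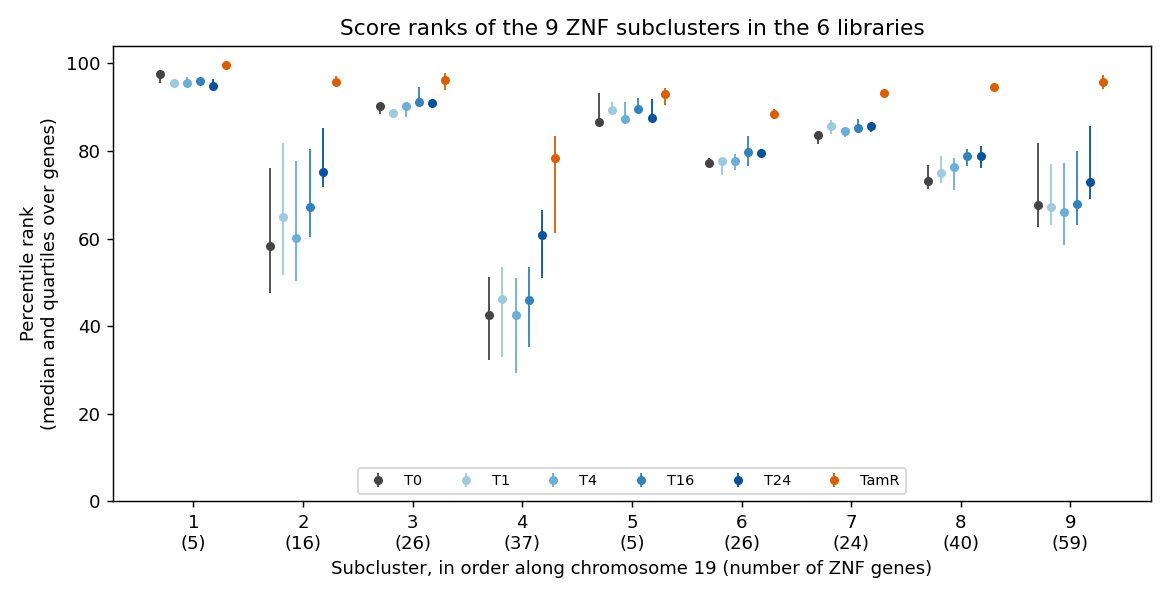
Percentile rank of the score (y axis) for the 9 subclusters in order along the chromosome (x axis, number of ZNF genes in brackets) in the 6 libraries; points are medians and bars the quartiles over genes of a subcluster, which share bins and are not replicates. Subclusters 2, 4, 8 and 9 have the lowest medians in T0, from 42.5 to 73.2, and subclusters 2, 8 and 9 reach 94.7 to 95.8 in TamR.

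In 19q13 all 163 members were in A in TamR, against 156 in T0, and the median rank rose from 76.7 to 94.2. A rise of 10 points or more was seen in 122 of them, and a fall of that size in none. Subclusters 8 and 9 rose by medians of 18.8 and 25.1 points, to 94.7 and 95.7. Subcluster 6 rose by 11.1 points, to 88.4, subcluster 7 by 9.38, to 93.3, and subcluster 5 by 3.91, to 93.1. ZNF331 of subcluster 8, studied as a tumour suppressor, scored 4.80 in T0, 6.33 in T1, 5.84 in T4, 5.35 in T16, 5.08 in T24 and 10.66 in TamR. ZNF274 of subcluster 9, known to bring SETDB1 to the 3′ ends of zinc finger genes, scored 2.66, 1.87, 2.76, 2.56, 3.17 and 11.20. In both genes TamR lay above all parental values, and the compartment was A throughout. They were named for their functions after their values were seen. At the lower end of the rank changes of 19q13 stood ZNF507 with -1.01, ZNF541 with -0.23 and ZNF114 with 0.0035.

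Within the subclusters of 19q13 most neighbours moved alike, and the bins that departed from them were picked after their values were seen. In subcluster 6, on 14 bins, the bin of ZNF829, ZNF568 and ZNF420 was the lowest in T0, with scores of 1.72 in T0, 2.20 in T1, 3.33 in T4, 3.30 in T16, 2.65 in T24 and 8.12 in TamR. ZNF568 is known from mouse work as a repressor of a placental Igf2 transcript, and ZNF420 as a regulator of p53. The rank of this bin rose from 62.6 to 88.9, and in TamR it lay among the other bins of the subcluster. In subcluster 8 the bin of ZNF160, ZNF415, ZNF347 and ZNF665 was the lowest in T0, with scores of 2.02, 2.09, 3.38, 3.55, 3.03 and 10.91, and that of ZNF611 and ZNF600 was the lowest in TamR, with 3.86, 5.89, 4.45, 4.57, 5.28 and 7.23. The first thus ended above the second from a lower start. In subcluster 9 the bin of ZNF552, ZNF587B and ZNF587 was the lowest in TamR, with scores of 2.28, 1.69, 1.04, 1.00, 1.46 and 6.67. Subcluster 7, where ZNF45, ZNF221 to ZNF227 and their relatives stand, spanned ranks of 76.4 to 97.0 in T0 and 91.7 to 97.8 in TamR, so its members lay closer together in TamR.

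Features that the choice of members did not use varied with these values. Members with the KRAB letter pattern had a median rank of 72.1 in T0 and a median change of 19.9 points to TamR, and the 56 without it 83.1 and 10.2 points. In TamR the median ranks were 94.1 and 94.8, so the groups differed in T0 and hardly in TamR. Subcluster 7 held the pattern in 2 of 24 members (8.33%) and the other subclusters of at least 16 members in 74.6 to 97.5%, so that the split follows the position of genes as well. The lack of a match says only that these letters were not found. Members with up to 5 fingers had a median change of 10.4 points, those with 6 to 10 fingers 16.7, those with 11 to 15 fingers 19 and those with more 13.2. The median GC content of the bin was 44% over the members, 44.2% over all protein-coding genes and 52.4% over the other genes of chromosome 19, so that the members lay near all genes and below the rest of their chromosome. Over the 130 bins GC content correlated with the rank in T0 (Pearson's r 0.49, Spearman's rho 0.50) and in TamR (0.42 and 0.64). It correlated inversely with the change to TamR (-0.32 and -0.34) and to T24 (-0.34 and -0.36). Over all 27898 scored bins the values for these changes were 0.04 and 0.08 for TamR and 0.13 and 0.16 for T24. Bins are neighbours of each other, and these values are descriptions. The part of GC content in the changes was not tested.

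The corepressor genes through which KRAB proteins act lay mostly in compartment A, as most protein-coding genes did. Of 16 listed genes 13 were in A in all 6 libraries, where 71.6% of all genes were. From T0 to TamR 2 rose by 10 rank points or more (12.5% of all genes) and 1 fell by as much (11.6% of all genes). TRIM28, which lies at the end of 19q, scored 7.29 in T0, 8.17 in T1, 7.33 in T4, 8.18 in T16, 9.36 in T24 and 13.40 in TamR, and its rank went from 86.4 to 98.9. ATF7IP, the partner of SETDB1, scored -0.16, -0.62, -0.25, 0.01, -0.44 and 3.89, and its rank went from 53.1 to 72.9. CHD4, the ATPase of the NuRD complex, scored 12.69, 13.92, 13.86, 14.48, 16.09 and 7.06, and its rank fell from 97.5 to 85.9. In these genes TamR lay outside the range of the parental libraries. SETDB1 scored 13.20 in T0 and 11.73 in TamR. DNMT1, the maintenance DNA methyltransferase, scored 12.44 and 11.67, and UHRF1, which guides it to replicated DNA, 12.59 and 13.62. HDAC2, a histone deacetylase, was in B in all 6 libraries, at -4.39 in T0 and -4.32 in TamR.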

How the data were processed

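Compartment scores of 6 T47D libraries, 1 per condition, were analysed. The authors deposited 1 score per 100 Kb bin of hg19. According to the study's methods, bowtie2 was used for alignment and HiCLib for iterative correction of the contact matrix and for its first eigenvector, with only contacts between chromosomes kept. Whether replicate cultures were pooled is not given in the sources used here, and the files do not show how many contacts a score rests on, so depth is unknown. A score of 0 marks a bin without a value and was left out. Of 30376 bins, 27898 had a score in all 6 libraries. Scores are scaled within a library, so signs and percentile ranks were compared. They were multiplied by 1000 for printing.

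Gene starts were taken from GENCODE release 44 mapped to GRCh37, and sequences and GC content from the GRCh37 genome, whose 23 chromosome lengths match the files. Coding sequences were translated for counting fingers, and no protein sequence was used. Python 3.11.15, numpy 2.4.6, pandas 2.3.3, scipy 1.17.1, pysam 0.24.0 and matplotlib 3.10.9 were used. The counting of compartment changes and the rank change were tested on a simulated table of scores with planted changes, which had no genes or positions.

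The members and lists were chosen with earlier results of these data known. In each cluster the genes named were the 3 highest and 3 lowest by mean rank, the 3 with the largest rise and fall from T0 to TamR (1 per bin), every member with one compartment in the parental libraries and the other in TamR (by bin), every member that differed from T0 at all 4 E2 time points, and the 16 corepressors. Others were added for known function. A rank change of 10 points was the size counted. The alternatives, given in the closing section, were other bins for a gene, other borders and ranks, weak bins left out, single libraries left out and other symbols.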

Additional observations from a re-analysis of the deposited data

How the results depend on the processing

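Of 79 alternative values 62 kept their direction and stayed close to the value reported, 16 moved and 1 turned. Without the bins whose absolute score fell in the lowest 10% of any library, 206 members remained, of which 92.7% were in A in T0 and 92.7% kept one compartment in all 6 libraries, 0.971% changed at 1 or more E2 time points, 15 passed from B to A and 0 from A to B in TamR, the median T0 rank was 78.5, and the median changes were 12.9 points to TamR and 3.18 to T24. With each bin counted once, 72.3% were in A in T0 and 71.5% kept one compartment, against 79.5% when the 249 members were counted by gene. Of all 19670 protein-coding genes, 14091 were in A and 3181 in B in all 6 libraries. With the border at the library median, 85.9% were in A in T0 and 2 members passed from A to B in TamR, and with the mean over the gene body 0 did. Over the 5 parental libraries alone 88.0% of members kept one compartment, where 5.70% of all genes changed it at 1 or more E2 time points. Without T24, 6.43% changed after E2. Ranked within chromosome 19, the median change was 11.4 points to TamR and -0.539 to T24. That ranking was also applied by cluster, an alternative chosen after seeing the data, and turned the change to T24 to -0.180 in 19p13 and -0.898 in 19q13. No paired analysis was possible because conditions had a single library each. The depth of the libraries is unknown, so the error of a score near 0 cannot be given, and changes of compartment close to the border rest on small differences. Scores depend on all chromosomes of a library, and a shift of chromosome 19 as a whole and a shift of these genes cannot be told apart by rank among all bins.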
